A study of Mus musculus with 2 samples.

Results

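Nitric oxide and cGMP signalling was followed in the mouse lung through 8 genes, taken by symbol from the 31053 genes counted in single cells. *Nos3*, *Nostrin*, *Cav1* and *Ddah2* act on the production side, and *Gucy1a1*, *Gucy1b1*, *Prkg1* and *Pde5a* on the response side. All 8 had a row in both matrices. The cells came from the lungs of C57/B6 mice aged 2 to 4 months without a transgene, with 1 library from normoxia and 1 library from mice kept in hypoxia for 3 weeks. The methods name male mice for hypoxia exposure. Both cell suspensions had been passed over beads coated with antibodies to CD45 and CD326, which take out leukocytes and epithelial cells. The matrices do not assign cells to animals, so nothing here measures the spread between mice, and the condition, the library and the animals behind it cannot be told apart.

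Nitric oxide is a gas made in endothelial cells (ECs) by endothelial nitric oxide synthase, and it diffuses to the contractile cells around the vessel. There it binds soluble guanylyl cyclase, a heterodimer of an alpha and a beta subunit, which makes cyclic GMP (cGMP). cGMP activates a protein kinase that lowers calcium and relaxes the cell, and phosphodiesterase 5 ends the signal by hydrolyzing cGMP. In the lung this pathway keeps pulmonary vascular resistance low, and stimulators of the cyclase and inhibitors of phosphodiesterase 5 are used as drugs in pulmonary hypertension.

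Transcripts were counted by unique molecular identifiers (UMIs) at their 3′ ends. The level of a gene is given as its UMIs summed over the cells of a class scaled to 1000000 UMIs of those cells (CPM), with an exact Poisson 95% interval. Ratios of levels carry exact conditional 95% intervals and shares of cells carry Clopper-Pearson 95% intervals, all of which cover counting error only. With 1 library per condition no test between conditions was possible. Levels were not scaled to transcript length and are compared between cells and libraries for the same gene, not between genes.

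The normoxia library held 2223 cells and the hypoxia library 809. The limits for a cell were 200 and 4000 detected genes and 5% of UMIs from mitochondria, which left 1348 cells with 5173361 UMIs (median 3453 per cell) and 689 cells with 2294966 UMIs (median 2224). The mitochondrial limit was exceeded by 37.6% of normoxia and 13.2% of hypoxia cells. The libraries shared 1 cell barcode. Classes are named "-like" from marker genes and may differ from the clusters of the study. EC-like cells numbered 866 in normoxia and 579 in hypoxia. Among them were 649 and 474 general capillary EC-like cells, 125 and 64 aerocyte-like cells (the capillary EC of gas exchange), 51 and 22 venous EC-like, 28 and 12 arterial EC-like and 11 and 3 lymphatic EC-like cells. Fibroblast-like cells numbered 189 and 35, pericyte-like cells 36 and 8, and myofibroblast-like cells 16 and 0. No cluster was named for smooth muscle cell (SMC) markers, so the SMC arm of the pathway was not measured as a class of its own. The myofibroblast-like cluster had the SMC marker *Acta2* among its leading genes. Its 10 SMC markers summed to 3211 CPM (8 of 10 detected, *Mcam* and *Cnn1* at 0). In normoxia they summed to 2001 CPM in pericyte-like and 1430 CPM in fibroblast-like cells. The myofibroblast-like cells may therefore include SMCs. The 193 cells of the remaining 2 clusters carry no name. Ratios between the libraries are given only for classes with 10 or more cells from both. Fibroblast-like and pericyte-like cells of the hypoxia library carried more EC transcripts than those of the normoxia library. The 10 EC markers summed to 473 CPM in normoxia and 2394 CPM in hypoxia in fibroblast-like cells, to 1959 and 7682 CPM in pericyte-like cells, and to 14300.1 and 14240.1 CPM in EC-like cells.

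*Nos3* (GRCm38, chr5:24364810-24384474, plus strand) encodes the endothelial synthase itself. EC-like cells held 123 of its 127 UMIs in the normoxia library and 128 of 130 in the hypoxia library. Its level in normoxia differed widely between blood EC subtypes, with venous and arterial EC-like cells above capillary ones and aerocyte-like cells at the bottom. In normoxia it was 129 CPM in venous EC-like cells (38 UMIs, interval 91.6 to 178), 117 CPM in arterial EC-like cells (18 UMIs, 69.3 to 185), 26.7 CPM in general capillary EC-like cells (61 UMIs, 20.4 to 34.3) and 4.24 CPM in aerocyte-like cells (3 UMIs, 0.875 to 12.4). In that order the venous and arterial levels did not separate, with an arterial over venous ratio of 0.904 (interval 0.485 to 1.62). The steps below them did: the venous level was 4.85 times the general capillary level (3.15 to 7.39), the arterial level 4.38 times it (2.44 to 7.51), and the general capillary level 6.29 times that of aerocyte-like cells (2.05 to 31.4).

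In the hypoxia library the venous EC-like cells were again highest at 140 CPM (13 UMIs, interval 74.5 to 239). General capillary EC-like cells had 69.9 CPM (108 UMIs, 57.3 to 84.4), arterial EC-like cells 61.6 CPM (3 UMIs, 12.7 to 180) and aerocyte-like cells 11.7 CPM (4 UMIs, 3.18 to 29.9). Aerocyte-like cells again lay below general capillary EC-like cells, by 5.99 times (2.27 to 22.4), and the venous level was 2.00 times the general capillary one (1.03 to 3.57). Of the 4 aerocyte-like UMIs, 3 came from the 25 hypoxia cells of cluster 13, led by *Scgb1a1*, at 98.3 CPM. That level was not below the general capillary one. The remaining UMI lay in the 39 hypoxia cells of cluster 12, led by *Ednrb*, at 3.20 CPM. The arterial level rests on 3 UMIs from 12 cells and did not separate from the general capillary level (ratio 0.881, 0.179 to 2.64).

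The shares of cells with a *Nos3* UMI in normoxia were 39.2% of venous EC-like cells at a median depth of 5029 UMIs, 39.3% of arterial EC-like cells at 4778 UMIs, 8.63% of general capillary EC-like cells at 3482 UMIs and 2.40% of aerocyte-like cells at 5884 UMIs. Aerocyte-like cells were thus the deepest of the 4 and had the lowest share. Outside the endothelium, no UMI was found in 36 pericyte-like, 47 alveolar type 1 (AT1)-like or 19 leukocyte cells (a cluster led by *Igkc*, *Ccl4* and *Ccl3*) of the normoxia library, where 3 cells would have been 8.33%, 6.38% and 15.8%. Fibroblast-like cells held 2 UMIs in normoxia and 1 in hypoxia.

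**Figure D1:**
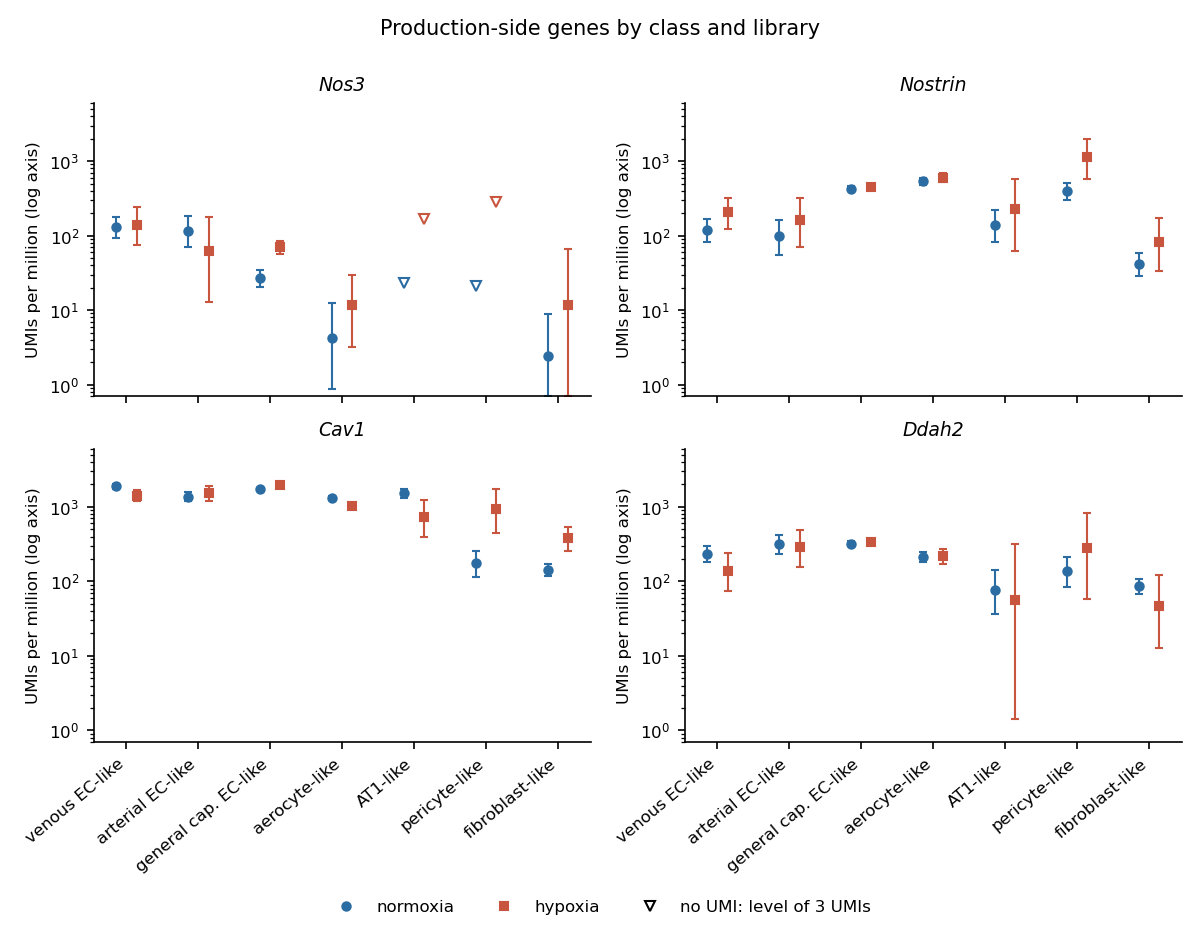
Level of the production-side genes by class in CPM (log axis, with the same range in each panel), with circles for the normoxia and squares for the hypoxia library and bars for exact Poisson 95% intervals, some of which run below the axis. Open triangles mark classes with no UMI at the level of 3 UMIs. *Nos3* stands highest in venous EC-like cells (129 and 140 CPM) and lowest among the plotted endothelial classes in aerocyte-like cells (4.24 and 11.7 CPM). *Nostrin* is highest in aerocyte-like cells and lower in venous and arterial EC-like cells.

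Between the libraries, *Nos3* was higher in hypoxia in EC-like cells as a whole, where it went from 35.2 CPM (123 UMIs, interval 29.3 to 42.0) to 62.2 CPM (128 UMIs, 51.9 to 74.0), a ratio of 1.77 (1.37 to 2.28). In general capillary EC-like cells 26.7 CPM stood against 69.9 CPM, a ratio of 2.62 (1.90 to 3.64). There the share of cells with a UMI was 8.63% at a median of 3482 UMIs in normoxia and 17.9% at 2428 UMIs in hypoxia. Thinned to 1000 UMIs per cell, 2.34% of 599 normoxia and 7.96% of 377 hypoxia cells had one, after 50 and 97 shallower cells were left out. Venous EC-like cells had a ratio of 1.08 (0.529 to 2.08), arterial EC-like cells 0.527 (0.0994 to 1.80) and aerocyte-like cells 2.75 (0.465 to 18.8), and all of these intervals include 1. The aerocyte-like ratio mixes 2 clusters. Cluster 12 alone had 0.719 (0.0137 to 8.96), and cluster 13 had 0 UMIs in 28 normoxia cells and 3 in 25 hypoxia cells. Whether the ratio differed between the subtypes was not tested.

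General capillary EC-like cells of both libraries fell mostly into different clusters, so the ratio was also taken within clusters. The normoxia cells lay mainly in clusters 1, 4 and 5 (148, 187 and 122 cells), led by *Gm16486* and *Ier3*, by *Plvap* and *Lpl*, and by *Ier3* and *Socs3*. Of the hypoxia cells, 194 lay in cluster 27, which had 4 normoxia cells and was led by *Ntrk2*, 91 in cluster 8 (6 normoxia cells), 75 in cluster 16 and 73 in cluster 15. *Nos3* was at 26.0 CPM in cluster 1 and 22.7 CPM in cluster 4 in normoxia, and at 70.0 CPM in cluster 27 and 31.0 CPM in cluster 8 (3 UMIs, 6.4 to 90.7) in hypoxia.

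Only 3 general capillary EC-like clusters had 10 or more cells from both libraries. In cluster 5 *Nos3* was at 37.9 CPM for normoxia (18 UMIs) and at 116 CPM for hypoxia (12 UMIs), a ratio of 3.06 (1.35 to 6.72). Cluster 15 had 42.6 and 54.6 CPM (4 and 8 UMIs), a ratio of 1.28 (0.344 to 5.82), and cluster 16 had no UMI in 38 normoxia cells (up to 62.6 CPM allowed) and 65.6 CPM in 75 hypoxia cells (7 UMIs). Pooled over these 3 clusters, 216 normoxia and 169 hypoxia cells gave a ratio of 2.68 (1.43 to 5.01). Over the 7 EC-like clusters that met the same minimum, the ratio was 1.47 (0.997 to 2.18), and this interval includes 1. These 7 add the venous, arterial and aerocyte-like clusters, whose own ratios are given above.

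Other genes moved with the libraries in the same cells. A list of 14 immediate-early genes, which are switched on by tissue dissociation among other stimuli, summed to 24997.6 CPM in normoxia and 7223 CPM in hypoxia in general capillary EC-like cells, with a UMI of each of the 14 in both. The 6 MHC class II genes summed to 2952 and 11303 CPM. In cluster 5, where *Nos3* differed by the ratio of 3.06, the immediate-early list stood at 36469.5 and 34177 CPM, and the MHC class II genes at 3502 and 12012 CPM. The part of either list in the *Nos3* difference was not tested.

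**Figure D2:**
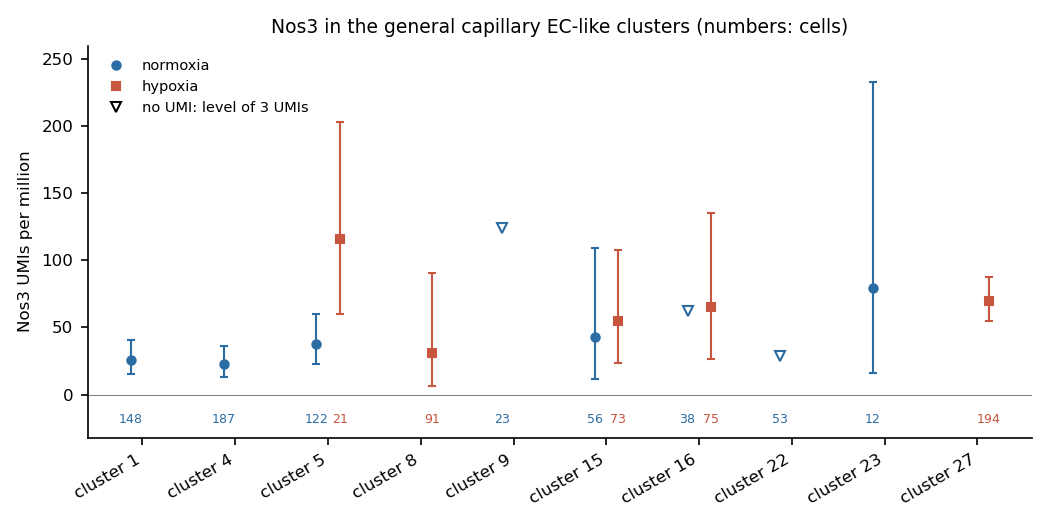
Level of *Nos3* in CPM (linear axis) in each general capillary EC-like cluster, for library and cluster combinations with at least 10 cells, whose cell numbers stand under the points. Bars are exact Poisson 95% intervals and open triangles mark no UMI at the level of 3 UMIs. Of the hypoxia-rich clusters, 27 lies at 70.0 CPM and 8 at 31.0 CPM, and the normoxia-rich clusters 1 and 4 at 26.0 and 22.7 CPM.

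*Nostrin* (chr2:69135800-69189330, plus strand) encodes an adaptor protein that binds the synthase and takes it from the plasma membrane to vesicles. Among the blood EC subtypes it ran opposite to *Nos3*. Lymphatic EC-like cells fell outside this order, with *Nostrin* at 71.7 CPM (3 UMIs) and *Nos3* at 23.9 CPM (1 UMI) in normoxia. In normoxia it was 537 CPM in aerocyte-like cells (380 UMIs, interval 485 to 594), 428 CPM in general capillary EC-like cells (979 UMIs, 402 to 456), 119 CPM in venous EC-like cells (35 UMIs, 83.0 to 166) and 97.4 CPM in arterial EC-like cells (15 UMIs, 54.5 to 161). The aerocyte-like level was 1.25 times the general capillary level (1.11 to 1.41), which in turn was 3.59 times the venous level (2.57 to 5.19), while the arterial and venous levels did not separate.

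The order in hypoxia was the same, with 595, 456, 205 and 164 CPM. The aerocyte-like over general capillary ratio was 1.31 (1.11 to 1.53) and the general capillary over venous ratio 2.23 (1.42 to 3.72). Between the libraries *Nostrin* differed little in EC-like cells, with 405 and 458 CPM and a ratio of 1.13 (1.04 to 1.23), and within clusters the ratio was 1.08 (0.943 to 1.23).

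*Nostrin* was also found in pericyte-like cells. In normoxia it stood there at 397 CPM (57 UMIs in 24 of 36 cells, interval 301 to 515), which did not separate from EC-like cells (ratio 0.981, 0.739 to 1.28) and was 9.62 times the level in fibroblast-like cells (6.18 to 15.2). These cells also hold EC transcripts, whose part in the *Nostrin* level was not tested. Pericyte-like cells had 2.28 *Nostrin* UMIs per *Cav1* UMI (1.40 to 3.81), against 0.247 in EC-like cells (0.233 to 0.262). Among normoxia pericyte-like cells, 16 had none of the EC transcripts *Cdh5*, *Pecam1*, *Cldn5* and *Egfl7*. In them *Nostrin* was at 358 CPM (20 UMIs in 10 cells, 219 to 553) and *Cav1* had no UMI, which allows up to 53.7 CPM. The 8 hypoxia pericyte-like cells held 12 *Nostrin* and 10 *Cav1* UMIs. Of these cells, 7 lay in a cluster with EC markers at 11211 CPM and pericyte markers at 3288 CPM in that library.

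*Cav1* (chr6:17306335-17341452, plus strand) encodes caveolin-1, the coat protein of caveolae, which binds the synthase and holds it inactive. It was high in each blood EC subtype. Normoxia levels were 1880 CPM in venous EC-like (552 UMIs), 1747 CPM in general capillary EC-like (3992 UMIs), 1371 CPM in arterial EC-like (211 UMIs) and 1322 CPM in aerocyte-like cells (935 UMIs). Lymphatic EC-like cells had 598 CPM (25 UMIs in 11 cells, interval 387 to 882), or 0.342 of the general capillary level (0.221 to 0.506). AT1-like cells, which also carry caveolae, had 1530 CPM (198 UMIs, 1325 to 1759).

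In hypoxia *Cav1* was 1962 CPM in general capillary EC-like cells, a ratio of 1.12 (1.07 to 1.18), but 1421 CPM in venous EC-like cells (0.756, 0.620 to 0.916) and 1027 CPM in aerocyte-like cells (0.777, 0.685 to 0.879). AT1-like cells had 730 CPM from 13 UMIs, a ratio of 0.477 (0.249 to 0.834). The ratio over EC-like cells was 1.07 (1.03 to 1.12), and within clusters it turned to 0.914 (0.850 to 0.984). With scaling to the median gene it was 1.03 (0.987 to 1.07). All of these differences are smaller than 1.5-fold except that of AT1-like cells.

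*Ddah2* (chr17:35059035-35062095, plus strand) encodes a dimethylaminohydrolase of the family that degrades asymmetric dimethylarginine, an inhibitor of the synthase. It was highest in general capillary and arterial EC-like cells. In normoxia it was 321 CPM in general capillary EC-like, 318 CPM in arterial EC-like, 235 CPM in venous EC-like and 214 CPM in aerocyte-like cells (734, 49, 69 and 151 UMIs), with an aerocyte-like over general capillary ratio of 0.665 (interval 0.554 to 0.793) and a venous one of 0.732 (0.563 to 0.937). Lymphatic EC-like cells had 95.6 CPM from 4 UMIs, and the general capillary level was 3.36 times theirs (1.31 to 12.4). In hypoxia the levels were 343, 287, 140 and 219 CPM in the same order, the general capillary level was 2.45 times the venous one (1.42 to 4.63), and the ratio between libraries was 1.07 over EC-like cells (0.965 to 1.18), which includes 1. Of the 4 subtypes venous EC-like cells differed most (0.596, 0.302 to 1.09), from 13 hypoxia UMIs.

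The response genes were concentrated in pericyte-like cells. *Gucy1a1* and *Gucy1b1* encode the alpha-1 and beta-1 subunits of soluble guanylyl cyclase and are neighbours on the minus strand of chromosome 3. *Gucy1a1* spans chr3:82092427-82145789 and *Gucy1b1* chr3:82032006-82074689, with 17737 bases between them. *Pde5a* (chr3:122728947-122859374, plus strand) encodes the phosphodiesterase, and *Prkg1* (chr19:30564489-31765033, minus strand) cGMP-dependent protein kinase 1. The promoters of the 3 genes with the highest counts in pericyte-like cells are shown because these genes were detected together. RefSeq promoter windows of GRCm38.p6, from 250 bases before to 50 bases after the start, were held for 7 of the 8 genes, and none was held for *Nos3*. They are *Gucy1a1* (chr3:82145601-82145900, minus strand, 62.3% G or C), *Gucy1b1* (chr3:82074662-82074961, minus strand, 52.3%) and *Pde5a* (chr3:122728908-122729207, plus strand, 66.3%), written 5′ to 3′ with the GC box, GGGCGG on either strand, in capitals:
Gucy1a1: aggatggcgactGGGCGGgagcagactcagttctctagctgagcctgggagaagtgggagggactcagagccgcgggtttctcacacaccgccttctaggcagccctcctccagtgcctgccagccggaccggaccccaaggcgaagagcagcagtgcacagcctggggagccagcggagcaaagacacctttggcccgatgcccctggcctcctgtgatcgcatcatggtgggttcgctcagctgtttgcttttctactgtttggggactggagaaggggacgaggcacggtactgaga
Gucy1b1: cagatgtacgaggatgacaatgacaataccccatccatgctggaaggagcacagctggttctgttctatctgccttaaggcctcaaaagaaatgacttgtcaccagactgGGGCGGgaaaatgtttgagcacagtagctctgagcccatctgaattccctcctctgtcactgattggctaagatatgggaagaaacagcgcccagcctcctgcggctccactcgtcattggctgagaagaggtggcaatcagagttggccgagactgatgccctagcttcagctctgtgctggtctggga
Pde5a: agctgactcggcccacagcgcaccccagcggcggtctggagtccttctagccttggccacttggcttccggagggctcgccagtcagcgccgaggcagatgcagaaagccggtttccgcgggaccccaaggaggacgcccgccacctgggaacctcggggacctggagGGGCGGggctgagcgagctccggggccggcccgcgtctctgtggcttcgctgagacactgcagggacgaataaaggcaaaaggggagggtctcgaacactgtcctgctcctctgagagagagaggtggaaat

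Each of the 3 windows held 1 GC box, a motif found in 35.9% of 27025 promoter windows of this length. The E-box CANNTG was found 1, 3 and 3 times, and 72.1% of windows hold it. The core of the hypoxia response element, ACGTG (19.7% of windows, and able to overlap an E-box), and the CArG box (1.57%) were in none of the 3. *Gucy1a1* has a further start site in the table (chr3:82145024-82145323, minus strand, not printed), whose window held 1 ACGTG and no GC box. TGACG, the core of the cAMP response element (21.0%), was in that of *Gucy1b1*. A match is a description of the letters and not a site in use.

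In normoxia pericyte-like cells *Gucy1a1* stood at 4190 CPM (601 UMIs in 34 of 36 cells, interval 3862 to 4539). *Gucy1b1* stood at 2789 CPM (400 UMIs in 32 cells, 2522 to 3076), *Pde5a* at 3472 CPM (498 UMIs in 32 cells, 3174 to 3791) and *Prkg1* at 202 CPM (29 UMIs in 18 cells, 135 to 290). The *Gucy1a1* level was 35.5 times that of fibroblast-like cells (28.6 to 44.5), 23.0 times that of myofibroblast-like cells (14.4 to 39.0) and 215 times that of EC-like cells (167 to 281). *Nos3* had no UMI in the same 36 cells, and the response genes thus stood highest in a class without a detected transcript of the synthase.

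The pericyte-like cells formed 2 clusters, and the response genes were most regular in the deeper one. Cluster 14, led by *Pdgfrb* and *Postn*, had 22 normoxia cells at a median of 5004 UMIs, and each of them had UMIs of *Gucy1a1*, *Gucy1b1* and *Pde5a*. Per cell there were 12 to 49 UMIs of *Gucy1a1* (median 25), 4 to 27 of *Gucy1b1* (median 16.5) and 3 to 43 of *Pde5a* (median 21.5), and 17 of the 22 cells had *Prkg1*. Scaled per cell, *Gucy1a1* ran from 1744 to 7084 CPM with a median of 4684 CPM.

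Cluster 11, led by *Ndufa4l2*, had 14 shallower normoxia cells with a median of 1184.5 UMIs. Here *Gucy1a1* was at 1477 CPM (34 UMIs, interval 1023 to 2063), *Gucy1b1* at 999 CPM (23 UMIs, 633 to 1499), *Pde5a* at 1520 CPM (35 UMIs, 1059 to 2114) and *Prkg1* at 43.4 CPM (1 UMI). In cluster 14 they were at 4709, 3131, 3845 and 233 CPM. The summed EC markers moved with this difference, at 4994 CPM in cluster 11 and 1379 CPM in cluster 14, as did the 11 pericyte markers, at 7730 and 20290.2 CPM, with 9 and 10 of the 11 detected and *Rgs5* at 0 in both. Their part in the lower level of cluster 11 was not tested.

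In the hypoxia library the response genes in pericyte-like cells rest on 8 cells with 10675 UMIs. *Gucy1a1* was at 1405 CPM (15 UMIs in 4 cells, interval 786 to 2318), *Gucy1b1* at 375 CPM (4 UMIs in 2 cells, 102 to 959) and *Pde5a* at 656 CPM (7 UMIs in 3 cells, 264 to 1351). *Prkg1* had no UMI, which allows up to 281 CPM and so includes the normoxia level.

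A ratio to normoxia is not given, because only 1 of the 8 cells lay in cluster 14. That cell alone held 9 of the 15 *Gucy1a1* UMIs, with 3 of *Gucy1b1* and 4 of *Pde5a* among its 3985 UMIs. The 7 hypoxia cells of cluster 11 had EC markers at 11211 CPM, against 4994 CPM in the normoxia cells of the cluster. Their pericyte markers summed to 3288 CPM (22 UMIs), against 7730 CPM in those normoxia cells. Only 4 of the 11 were detected, with *Pdgfrb*, *Cspg4* and *Notch3* among those at 0. The name pericyte-like is therefore weakly borne out for these 7 cells, and the hypoxia levels of the class carry that limit. With up to 10% mitochondrial UMIs allowed, *Gucy1a1* in 10 hypoxia pericyte-like cells was 3386 CPM (2644 to 4271), and in normoxia 3839 CPM (3552 to 4144). Under the same limit *Gucy1b1* was 858 CPM in hypoxia (509 to 1357) and 2468 CPM in normoxia (2239 to 2715), and *Pde5a* 1097 CPM (695 to 1646) and 3186 CPM (2924 to 3465). The clustering was rebuilt for this setting, so the cells called pericyte-like also changed.

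**Figure D3:**
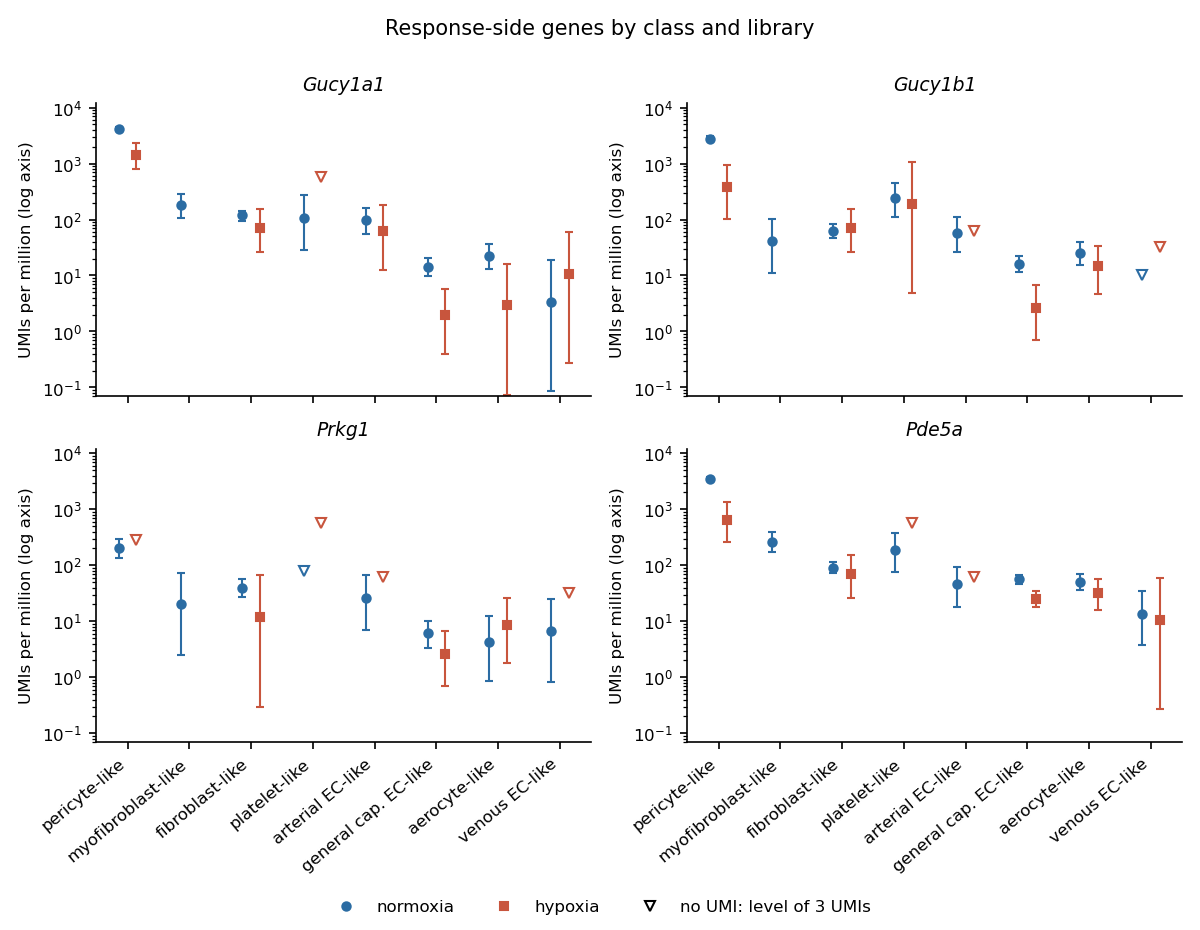
Level of the response-side genes by class in CPM (log axis), with circles for normoxia, squares for hypoxia, bars for exact Poisson 95% intervals (some run below the axis) and open triangles for no UMI at the level of 3 UMIs. *Gucy1a1*, *Gucy1b1* and *Pde5a* stand at 2789 to 4190 CPM in normoxia pericyte-like cells, above the other plotted classes of that library.

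Because the cyclase works as a heterodimer, cells were counted by subunit. In normoxia, 31 of 36 pericyte-like cells had UMIs of both subunits (86.1%, interval 70.5 to 95.3), and 29 of these also had *Pde5a*. Thinned to 1000 UMIs, 22 of 30 cells had both (73.3%, 54.1 to 87.7). Both subunits were in 22 of 22 cells of cluster 14 and 9 of 14 of cluster 11 in normoxia. In hypoxia they were in 1 of 7 cells of cluster 11 and in the 1 cell of cluster 14.

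In the other classes of the normoxia library the pair was in 21 of 189 fibroblast-like cells (11.1%, interval 7.01 to 16.5), 2 of 16 myofibroblast-like cells and 18 of 866 EC-like cells (2.08%, 1.24 to 3.27). It was also in 3 of 18 platelet-like cells (16.7%, 3.58 to 41.4), and these 3 also had *Pde5a*. Thinned to 1000 UMIs, it was in 2 of 137 fibroblast-like cells (1.46%, 0.177 to 5.17), 0 of 803 EC-like cells and 2 of 9 platelet-like cells. Median depths were 4158 UMIs in pericyte-like, 3411 UMIs in fibroblast-like, 5984 UMIs in myofibroblast-like, 3776 UMIs in EC-like and 1100 UMIs in platelet-like cells. No leukocyte cell had a UMI of either subunit (0 of 19, where 3 cells would be 15.8%, at a median of 4685 UMIs). There were 0.666 *Gucy1b1* UMIs per *Gucy1a1* UMI in normoxia pericyte-like cells (0.585 to 0.757), 0.536 in fibroblast-like cells (0.375 to 0.758) and 0.222 in myofibroblast-like cells (0.0547 to 0.675).

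**Figure D4:**
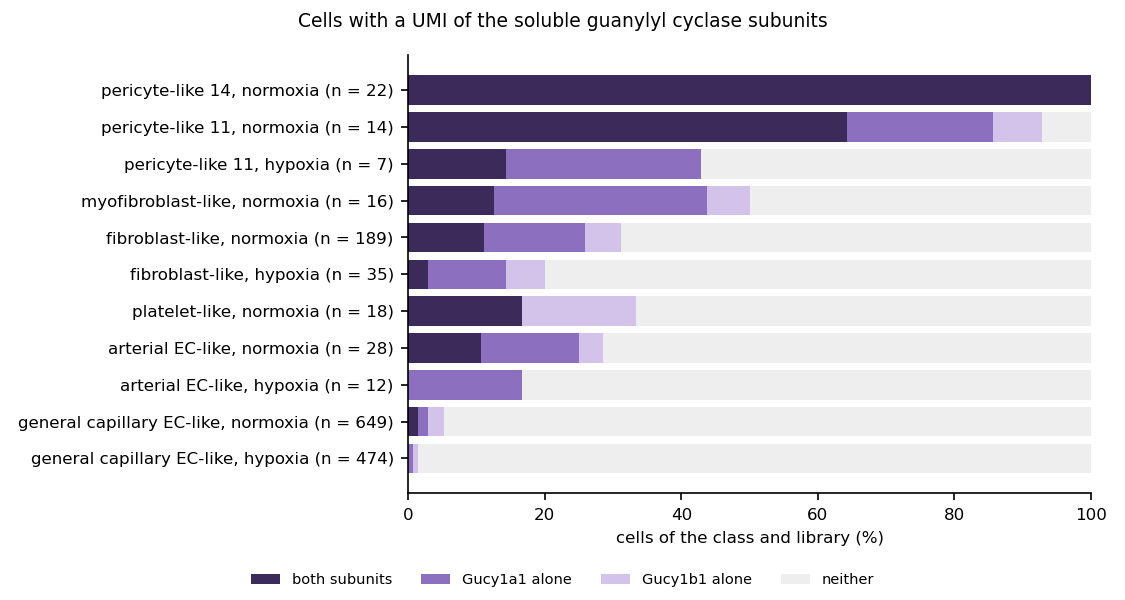
Share of cells (percent, linear axis from 0) with UMIs of both cyclase subunits, of *Gucy1a1* alone, of *Gucy1b1* alone or of neither, by class and library with the number of cells. The pair fills the bar of the normoxia cells of pericyte-like cluster 14 (22 of 22) and takes 11.1% of the normoxia fibroblast-like bar.

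Fibroblast-like cells had the response genes at low levels. In normoxia *Gucy1a1* was at 118 CPM (97 UMIs in 49 of 189 cells, interval 95.6 to 144), *Gucy1b1* at 63.2 CPM (52 UMIs, 47.2 to 82.9), *Pde5a* at 91.2 CPM (75 UMIs, 71.7 to 114) and *Prkg1* at 40.1 CPM (33 UMIs, 27.6 to 56.3). In the 114 of these cells that lacked the same 4 EC transcripts, the levels were 112, 61.4, 85.6 and 54.9 CPM, each within the interval for all fibroblast-like cells.

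Alveolar fibroblast-like cells had more *Gucy1a1* than adventitial ones, and no contrast is given for the other response genes. The deep alveolar cluster 20, with 83 normoxia cells, had *Gucy1a1* at 154 CPM (90 UMIs, 124 to 190), *Gucy1b1* at 85.8 CPM, *Pde5a* at 97.8 CPM and *Prkg1* at 36.0 CPM. The shallower alveolar cluster 10, with 92 normoxia cells, had them at 51.5, 17.2, 94.4 and 25.7 CPM (6, 2, 11 and 3 UMIs). The 14 adventitial cells had *Gucy1a1* at 8.10 CPM (1 UMI), no UMI of *Gucy1b1* (up to 24.3 CPM allowed), *Pde5a* at 56.7 CPM (7 UMIs) and *Prkg1* at 72.9 CPM (9 UMIs in 5 cells, 33.4 to 138), although their median depth was 9970 UMIs. Alveolar cells of both clusters together had 16.9 times the adventitial *Gucy1a1* level (2.97 to 676). Myofibroblast-like cells, found in normoxia alone and led by *Hhip* and *Aspn*, had *Gucy1a1* at 182 CPM (18 UMIs), *Gucy1b1* at 40.5 CPM (4 UMIs), *Pde5a* at 263 CPM (26 UMIs, 42.3% of them in 1 cell) and *Prkg1* at 20.3 CPM (2 UMIs).

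Between the libraries, none of the response genes separated in fibroblast-like cells. The 35 hypoxia cells gave 71.1 CPM (6 UMIs, interval 26.1 to 155) for each of *Gucy1a1*, *Gucy1b1* and *Pde5a*, and 11.9 CPM (1 UMI) for *Prkg1*. The ratios were 0.603 (0.216 to 1.36), 1.12 (0.395 to 2.62), 0.780 (0.277 to 1.78) and 0.295 (0.00726 to 1.76). The interval reaches down to 0.216 for *Gucy1a1* and up to 2.62 for *Gucy1b1*, so no direction was detectable at this depth. Genes with 20 or more UMIs in each library numbered 658. Scaling to their median, which lowers log2 ratios in these cells by 0.448, gave 0.442 for *Gucy1a1* (0.158 to 0.998) and turned *Gucy1b1* to 0.825. The limit of 20 UMIs is a higher level among 84387 hypoxia UMIs than among 822666 normoxia UMIs. It thus favours genes higher in hypoxia, and the shift cannot be told apart from that choice. Over the 3169 genes measured in these cells the median log2 ratio was -0.050, so no direction is read from the scaled ratios. As a mean over cells *Gucy1a1* was 1.17.

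*Cav1* was the only member past 1.5-fold with an interval clear of 1 in fibroblast-like cells, where 142 CPM (117 UMIs, interval 118 to 170) stood against 379 CPM for hypoxia (32 UMIs, 259 to 535), a ratio of 2.67 (1.74 to 3.97). The EC markers moved with it by the values given above, with all 10 detected in both libraries. In cluster 10 alone, which held 30 of the 35 hypoxia cells, the ratio was 1.36 (0.782 to 2.30). The part of EC transcripts in the *Cav1* ratio was not tested. Of the 8 genes, 5 reached 50 UMIs over both libraries in fibroblast-like cells. *Cav1* was at least 1.5 times higher, beside 17.5% of the 3169 genes measured there, and *Gucy1a1* and *Ddah2* (0.549, 0.146 to 1.47) at least 1.5 times lower, beside 31.6% of them. The intervals of both lower genes include 1. In cluster 10 alone *Gucy1a1* had a ratio of 1.13 (0.183 to 5.29, from 6 and 3 UMIs) and *Ddah2* 0.616 (0.110 to 2.33). Cluster 20 had 83 normoxia and 4 hypoxia cells. The part of this cluster mix in the ratios was not tested.

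EC-like cells had few UMIs of the response genes, and at lower levels in hypoxia. *Gucy1a1* went from 19.5 CPM (68 UMIs) to 3.89 CPM (8 UMIs), a ratio of 0.200 (interval 0.0829 to 0.417). *Gucy1b1* was at 18.9 and 4.38 CPM (66 and 9 UMIs), a ratio of 0.232 (0.101 to 0.467), and *Pde5a* at 51.2 and 25.3 CPM (179 and 52 UMIs), a ratio of 0.493 (0.355 to 0.675). *Prkg1* had 25 and 7 UMIs, at 7.16 and 3.40 CPM, and stayed under 50 UMIs.

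Within clusters the EC-like ratios were 0.435 for *Gucy1a1* (0.177 to 1.07), 0.425 for *Gucy1b1* (0.190 to 0.947) and 0.528 for *Pde5a* (0.330 to 0.846). The summed list of pericyte markers was also lower in hypoxia in EC-like cells. The 11 pericyte markers summed to 86.4 CPM in normoxia (77.0 to 96.8, 11 of 11 detected) and 56.4 CPM in hypoxia (46.6 to 67.6, 9 of 11 detected, *Cspg4* and *Abcc9* at 0). The 4 of them used in the study, *Pdgfrb*, *Cspg4*, *Cox4i2* and *Higd1b*, summed to 38.9 CPM (32.7 to 46.0) and 31.6 CPM (24.4 to 40.3). The intervals of these 4 overlap. Both subunits were found together in 18 of 866 normoxia and 0 of 579 hypoxia EC-like cells, at median depths of 3776 and 2698 UMIs. Thinned to 1000 UMIs, the pair was in 0 of 803 and 0 of 465 cells. At that depth *Gucy1a1* alone was in 10 normoxia cells and 1 hypoxia cell, and *Gucy1b1* alone in 11 and 1. Both subunits were thus too rare after thinning for the pair to be compared between the libraries. Over all kept cells, which include the pericyte-like cells, the pericyte markers summed to 620 CPM in normoxia and 111 CPM in hypoxia. *Gucy1a1* there stood at 154 and 12.6 CPM, a ratio of 0.0818 (0.0544 to 0.118). The part of pericyte transcripts in the EC-like ratios was not tested.

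The ratio of *Pde5a* to *Gucy1a1* UMIs varied between EC subtypes. General capillary EC-like cells in normoxia had 3.91 *Pde5a* UMIs per *Gucy1a1* UMI (2.65 to 5.92), against 0.829 in pericyte-like cells (0.734 to 0.935), the class with the most of both. Aerocyte-like cells had 2.25 (1.22 to 4.34), but arterial EC-like cells 0.467 (0.161 to 1.22). The unnamed normoxia cells had 2.875 (1.24 to 7.43). Their EC markers summed to 9622 CPM, against 14300.1 CPM in EC-like cells, so they do not show a high ratio outside the endothelium. *Pde5a* in general capillary EC-like cells went from 56.5 CPM (129 UMIs) to 25.2 CPM (39 UMIs), a ratio of 0.447 (0.304 to 0.644), and 0.477 within clusters (0.235 to 0.970). Leukocyte cells of the normoxia library had *Pde5a* UMIs in 3 of 19 cells, at 21.3 CPM (4.40 to 62.4). That range holds the general capillary EC-like level of normoxia (56.5 CPM) and that of hypoxia (25.2 CPM).

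Arterial EC-like cells had more *Gucy1a1* than the other blood EC subtypes, at 97.4 CPM in normoxia (15 UMIs in 7 of 28 cells, interval 54.5 to 161), which was 6.75 times the general capillary level (3.40 to 12.8). *Gucy1b1* was at 58.5 CPM there (9 UMIs, 5 of them in 1 cell), and 3 of the 28 cells had both subunits. The pericyte markers in these arterial EC-like cells summed to 58.5 CPM (26.7 to 111, 5 of 11 detected, *Cspg4* and *Notch3* among those at 0), and to 86.4 CPM in EC-like cells as a whole. The 10 SMC markers summed to 546 CPM in the arterial EC-like cells (435 to 675, 4 of 10 detected, with *Acta2*, *Myh11* and *Cnn1* at 0) and to 398 CPM in EC-like cells (377 to 419). The part of either list in the arterial *Gucy1a1* level was not tested. Venous EC-like cells were at the other end, with 1 UMI of *Gucy1a1* and none of *Gucy1b1* in 51 cells (up to 10.2 CPM allowed).

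**Figure D5:**
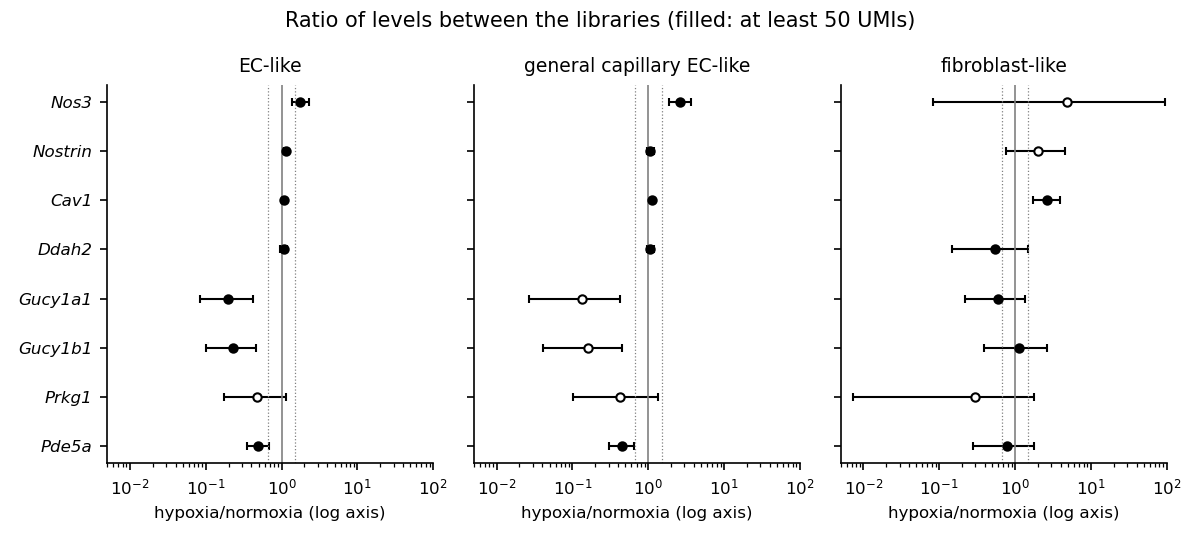
Hypoxia over normoxia ratio of the level of each of the 8 genes in EC-like, general capillary EC-like and fibroblast-like cells (log axis), with exact conditional 95% intervals. Filled points have at least 50 UMIs over both libraries, the solid line marks equal levels and the dotted lines 1.5-fold either way. *Nos3* lies above the upper dotted line in both endothelial panels (1.77 and 2.62), and *Pde5a* below the lower one (0.493 and 0.447).

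Over EC-like cells, 7 of the 8 genes reached 50 UMIs. *Nos3* was at least 1.5 times higher in hypoxia, beside 7.78% of the 8692 genes measured there, and *Gucy1a1*, *Gucy1b1* and *Pde5a* at least 1.5 times lower, beside 9.69% of them. The median log2 ratio of the 7 was 0.094 and that of all genes 0.036. In general capillary EC-like cells 5 of the 8 reached 50 UMIs, with *Nos3* higher, beside 9.93% of 7687 genes, and *Pde5a* lower, beside 10.3%, and medians of 0.095 for the 5 and 0.047 for all genes.

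The other genes of the pathway were read from a list of 60, of which 59 had a row. In EC-like cells 36 reached 50 UMIs, 5 were at least 1.5 times higher in hypoxia (13.9%, beside 7.78% of all genes) and 3 at least 1.5 times lower (8.33%, beside 9.69%), and the median log2 ratio was 0.230 against 0.036 for all genes. The supply of substrate and cofactor accounted for 3 of the 5 higher genes and none of the lower ones, out of 9 measured. *Slc7a1*, the arginine transporter, was at 16.6 CPM for normoxia and 33.1 CPM for hypoxia (ratio 1.99, interval 1.38 to 2.88). *Ass1*, which rebuilds arginine from citrulline, was at 40.9 and 64.7 CPM (1.58, 1.24 to 2.01). *Qdpr*, which regenerates the cofactor tetrahydrobiopterin, was at 27.5 and 44.7 CPM (1.63, 1.21 to 2.19). *Ddah1* of the same part, named after its values were seen, was lower at 146 and 101 CPM (0.693, 0.587 to 0.816), short of 1.5-fold. In aerocyte-like cells *Ddah1* was at 209 and 105 CPM (0.502, 0.339 to 0.727), and *Spr* at 58.0 and 90.5 CPM (1.56, 0.946 to 2.55).

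Among 16 partners and modifiers of the synthase, *Cyb5r3*, a reductase of alpha globin heme that limits nitric oxide diffusion, was at 153 and 275 CPM (1.80, 1.59 to 2.03). *Hsp90ab1*, a chaperone of the family that the active synthase binds, was at 1677 and 2765 CPM (1.65, 1.59 to 1.71). The other 14 lay within 1.5-fold.

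The 3 lower genes belong to different steps. *Rgs2*, a target of the kinase that damps contractile G protein signals, was at 26.9 and 6.81 CPM (0.253, 0.133 to 0.446). *Npr3*, the clearance receptor for natriuretic peptides, was at 219 and 72.4 CPM (0.331, 0.276 to 0.395). *Pde3a*, a cAMP phosphodiesterase that cGMP inhibits, was at 386 and 176 CPM (0.457, 0.406 to 0.513). The other synthases, also picked after their values were seen, stayed under 50 UMIs. *Nos1* had 0 UMIs in both libraries. *Nos2*, the inducible synthase, went from 6.01 CPM (21 UMIs) to 13.6 CPM (28 UMIs), a ratio of 2.27 (1.24 to 4.20). In general capillary EC-like cells it went from 4.81 to 16.2 CPM (11 and 25 UMIs), a ratio of 3.36 (1.60 to 7.57). Aerocyte-like cells went the other way, from 12.7 to 2.92 CPM (9 UMIs and 1 UMI), a ratio of 0.229 with an interval that includes 1 (0.00523 to 1.65).

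In fibroblast-like cells 19 of the 59 genes reached 50 UMIs, with 4 higher and 4 lower (21.1% each, beside 17.5% and 31.6% of all genes). They are named after their values were seen. The higher ones were *Cyb5r3* (3.71, interval 2.22 to 6.03), *Cavin1* (2.34, 1.60 to 3.36), *Cavin2* (1.67, 1.23 to 2.24) and *Dnm2* (1.99, 0.899 to 3.98), where the cavins build caveolae with *Cav1* and moved beside the EC transcripts described above. The 4 lower ones, *Spr*, *Prmt1*, *Ppp1r12b* and *Abcc5*, had 3 hypoxia UMIs each and intervals that include 1. In general capillary EC-like cells 35 reached the minimum, 6 were higher (17.1%, beside 9.93% of all genes) and 3 lower (8.57%, beside 10.3%), namely the 8 genes named for EC-like cells and *Cavin1* (1.61, 1.47 to 1.76).

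As a description of shared patterns, levels on the log2(CPM + 10) scale were correlated over the 13 combinations of class and library with at least 20 cells, which share libraries and differ in depth. Pericyte-like cells entered from the normoxia library only. That combination held the highest level of each response gene, so the r values of these genes lean on it. Among 5773 genes, the gene most like *Gucy1a1* was *Gucy1b1* (r = 0.971), followed by *Ifitm1* and the pericyte marker *Pdgfrb*, and the same 2 genes followed for *Gucy1b1*. *Gucy1a1* followed *Phf20* for *Prkg1* (0.913). On the production side *Cav1* was most like the caveolar gene *Cavin2* (0.960), *Nos3* like *Slfn2* (0.904), *Nostrin* like *Arap2* (0.929) and *Ddah2* like *Zc3hav1* (0.948).

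Platelet-like cells also carried cyclase transcripts. The 18 normoxia cells of this class, at a median of 1100 UMIs, had *Gucy1b1* at 239 CPM (9 UMIs in 6 cells, interval 109 to 454), *Gucy1a1* at 106 CPM (4 UMIs in 3 cells, 29.0 to 272) and *Pde5a* at 186 CPM (7 UMIs in 6 cells, 74.8 to 383), with no UMI of *Prkg1*. Platelets are known to use this pathway to limit their activation. The pericyte markers in them summed to 106 CPM (4 UMIs, 3 of 11 detected, with *Pdgfrb*, *Cspg4* and *Notch3* at 0), and the EC markers to 8291 CPM. The 5 hypoxia cells held 1 UMI, of *Gucy1b1*.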

How the data were processed

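Per the file headers and the submitters' processing notes, the authors aligned the 3′ reads to mm10 with Cell Ranger 6.1.2 and deposited filtered matrices of raw UMI counts, 1 per library. Cells with 200 to 4000 detected genes and up to 5% mitochondrial UMIs were kept. The gene limit was the only step against doublets. In scanpy 1.11.5, 2000 variable genes were chosen across both libraries, and the 8 genes and the pathway list were then left out. With 30 principal components, 15 neighbours and Leiden resolution 2, the rest gave 28 clusters, with no batch correction. Clusters were named from marker lists, subtypes within the endothelial and fibroblast classes.

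UMIs were summed per class and library. Levels have exact Poisson, ratios exact conditional and shares Clopper-Pearson intervals at 95%. Beside 0 UMIs stands what 3 UMIs would give. Within-cluster ratios are Mantel-Haenszel estimates over clusters holding 10 or more cells from both libraries. Genes with at least 50 UMIs in a class form its background, and a difference counts at 1.5-fold. The intervals were tested on simulated Poisson counts, which hold no added spread between cells or libraries and cannot show coverage where such spread exists. Of simulated 2-fold changes, 94.9% in EC-like and 44.9% in fibroblast-like cells had an interval clear of 1 on the right side. With 1 library a condition no p-value was computed. Alternatives changed the cell limits, clustering, gating, scaling, weighting and thinning depth.

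The 8 genes, the pathway list and the marker lists were chosen with earlier results of these data known, and the immediate-early and MHC class II lists after the values were seen. Members are named in full, pathway genes where they passed 1.5-fold in EC-like cells, and for each member up to 3 genes of like pattern. Other genes were named after their values were seen. The gene list for likeness had at least 200 UMIs over the kept cells.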

Additional observations from a re-analysis of the deposited data

How the results depend on the processing

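No paired analysis was possible because there is 1 library a condition. Over 65 values and 244 alternatives, 197 stayed within the interval of the reported value and 46 fell outside it. The remaining 1 changed sides of equality where the reported interval excluded 1. Changes of side where that interval included 1 are counted among the 197 or the 46. They include *Ddah2* in EC-like cells and *Gucy1a1*, *Gucy1b1* and *Pde5a* in fibroblast-like cells. The 46 include shares of cells with a UMI thinned to 2000 instead of 1000 UMIs per cell, which depend on depth. The aerocyte-like over general capillary *Nos3* ratio in hypoxia ran from 0.0421 to 0.171 over 7 alternatives, 3 of them outside its interval. The *Nos3* ratio ran from 1.47 to 2.24 in EC-like and from 2.42 to 2.77 in general capillary EC-like cells. In EC-like cells the *Cav1* ratio turned to 0.914 and that of *Ddah2* to 0.957 within clusters, and *Nostrin* was 1.03 as a mean over cells. In fibroblast-like cells without EC transcripts the ratios of *Gucy1b1* and *Prkg1* were 0 and 0, from no hypoxia UMI, and *Pde5a* was 0.205 within clusters. The normoxia pericyte-like level of *Gucy1a1* was 3444 CPM at up to 6000 detected genes, 3839 at 10% mitochondrial UMIs, 3404 with the members among the variable genes, 3001 with marker gates, 3765 as a mean over cells and 4549 without EC transcripts. In the same settings except the mean, *Gucy1b1* was 2249, 2468, 2256, 2107.0 and 3170 CPM. *Pde5a* was 2853, 2841, 2605 and 4155 CPM at 6000 genes, with the members, with gates and without EC transcripts, and *Prkg1* 340.2 CPM in the last. The causes were not tested. Scaling to the median gene lowered log2 ratios by 0.060 in EC-like and 0.448 in fibroblast-like cells. In the latter the genes used for scaling lean to those higher in hypoxia, as described above. The 10% limit left 0 arterial EC-like cells, a minimum of 1000 UMIs left too few hypoxia fibroblast-like cells for a ratio, and *Nostrin* per *Cav1* had no value without EC transcripts, since *Cav1* was at 0. Alternatives on pericyte-like hypoxia levels, EC subtype contrasts, general capillary *Nos3* and *Nostrin* per *Cav1* were added after seeing the data. Depth limits the response genes in fibroblast-like cells, with 1 to 6 hypoxia UMIs each.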
